A study of Mus musculus with 3 samples.

Results

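Leydig cells were taken here as barcodes with a high level of steroid hormone transcripts in single-cell RNA libraries of adult mouse testis. A barcode is the tag that marks the transcripts of 1 droplet, and a unique molecular identifier (UMI) marks 1 captured molecule. Of the 33038 deposited barcodes 28485 passed a filter (minimum 1000 UMIs and 500 genes, maximum 10% of UMIs from mitochondrial genes), and 133 of these were members. A member carried at least 5 UMIs, and at least 20 per 10000 of its UMIs, of the 6 genes Cyp17a1, Cyp11a1, Star, Hsd3b1, Hsd3b6 and Insl3, called the rule genes below. The 113 members with 3000 or more UMIs are called deep members, and the 20 with fewer are described apart from them. Because the rule genes chose the members, their levels are given as a description and support no finding.

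The series concerns Tex10, which encodes a nuclear protein described in ribosome biogenesis, and its conditional deletion in the testis. There were 3 libraries. Wildtype replicate 1 and wildtype replicate 2 each held the cells of 1 wildtype mouse, and the knockout library held the pooled cells of 2 mice with a conditional Tex10 knockout. Per the labels, the testes were digested with collagenase IV and captured in droplets, and the 3′ ends of transcripts were counted. All mice carried the strain label C57BL/6N, all were adult without an age being given, and no treatment is named. No Cre driver and no deleted exon is named, so whether Leydig cells were among the cells that lost Tex10 is not known here, and the pooled knockout mice cannot be told apart. Where 3 values stand together, they belong to wildtype replicate 1, then wildtype replicate 2, then the knockout library. With 1 knockout library no comparison has a replicate check. No p-value is given, and intervals are exact 95% intervals that cover counting error only.

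Leydig cells lie between the seminiferous tubules and make testosterone from cholesterol under the control of luteinizing hormone from the pituitary. Star moves cholesterol to the inner mitochondrial membrane, and Cyp11a1 converts it there to pregnenolone. Hsd3b enzymes then form progesterone, Cyp17a1 turns it into androstenedione, and Hsd17b3 makes testosterone. Insl3 is a second hormone of these cells, a relaxin-family peptide known for its role in the descent of the testis. In the mouse, Hsd3b1 is made in fetal and adult Leydig cells and Hsd3b6 is known as an adult isoform.

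The sequences just upstream of Insl3, Hsd3b6 and Hsd3b1 are shown because Insl3 and Hsd3b6 are the rule genes whose part of the rule-gene UMIs differed most between the knockout and wildtype libraries as a ratio, and Hsd3b1 is the other Hsd3b isoform of the rule. Each is the 250 bases before the RefSeq start of the gene on its coding strand, from RefSeq on GRCm38.p6 (the GENCODE start of Insl3, used for the gene's position below, lies inside the window). Insl3 lies on the plus strand at chr8:71689002-71689251, and Hsd3b6 and Hsd3b1 on the minus strand at chr3:98814444-98814693 and chr3:98859795-98860044. Capitals mark CAAGGNC on either strand, the core of the sequence bound by Nr5a1, the nuclear receptor that controls steroid synthesis genes.
Insl3: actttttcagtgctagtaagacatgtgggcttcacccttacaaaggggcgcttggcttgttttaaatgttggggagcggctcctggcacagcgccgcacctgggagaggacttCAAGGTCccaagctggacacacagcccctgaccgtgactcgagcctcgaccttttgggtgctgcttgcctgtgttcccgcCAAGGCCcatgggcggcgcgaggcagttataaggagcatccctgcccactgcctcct
Hsd3b6: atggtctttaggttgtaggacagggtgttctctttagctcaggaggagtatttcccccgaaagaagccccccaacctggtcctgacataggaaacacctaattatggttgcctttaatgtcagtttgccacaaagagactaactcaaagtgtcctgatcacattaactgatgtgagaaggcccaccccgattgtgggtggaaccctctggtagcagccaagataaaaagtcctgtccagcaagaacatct
Hsd3b1: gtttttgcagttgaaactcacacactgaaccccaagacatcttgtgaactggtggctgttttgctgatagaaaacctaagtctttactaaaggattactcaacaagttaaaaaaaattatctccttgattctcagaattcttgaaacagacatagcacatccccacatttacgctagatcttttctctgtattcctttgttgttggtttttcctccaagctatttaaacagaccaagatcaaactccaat
The Insl3 window held 2 matches, whose first bases lay 137 and 57 bases before the start, and the Hsd3b windows held 0. Of 32851 promoter windows of this length, 4938 (15.0%) held a match. A match describes these letters and not a bound site.

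The libraries differed in depth, and germ cell transcripts differed among the members. The deposited totals were 93418341, 96001773 and 147783171 UMIs, highest for the knockout library. Between 27 and 30 barcodes were shared by each pair of libraries, among them 2 members of the knockout library. Tex10 itself stood at 18.4 CPM (UMIs per 1000000 of the summed UMIs) in the deep members of wildtype replicate 1, 45.1 CPM in those of wildtype replicate 2 and 21.1 CPM in those of the knockout library, with intervals of 8.41 to 34.9, 31.2 to 63.0 and 13.8 to 30.8. In the other barcodes from 3000 UMIs it stood at 46.3, 41.5 and 35.8 CPM. In the members the knockout value lay between the wildtype values, and since the deleted exons are not given, these 3′ counts do not check the genotype.

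The label of Leydig cells was checked on Fabp3, a fatty acid binding protein that marks Leydig cells and that the rule did not use. It was found in 113 of 113 deep members, at 12297, 6506 and 9637 CPM, against 8.54, 7.45 and 9.65 CPM in the other barcodes from 3000 UMIs. At least 1 Fabp3 UMI was found in 11.9%, 8.55% and 13.7% of those other barcodes, whose median depth was 12687.5, 11613 and 12009 UMIs, against 19816, 17452 and 22351 in the deep members. At least 4 of the 6 rule genes were detected in 110 of the 113, but these genes chose the members, so this count does not bear on the label. By Fabp3, a gene outside the rule, the Leydig label held for the deep members as a group and was less firm for some. Germ cell marker genes, described below, held at least 4% of the UMIs in 14 of the 113. Among these, 1 knockout member had 1 Fabp3 UMI and another had 4.92 per 10000, against a median of 91.3 in the deep knockout members. Part of the Fabp3 transcript end (36.2% of its words of 31 bases) is shared with Fabp3-ps1, which limits this check.

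The members were few in every library. Wildtype replicate 1 had 27 members (0.332% of its kept barcodes, interval 0.219 to 0.483), wildtype replicate 2 had 32 (0.384%, 0.263 to 0.541) and the knockout library had 74 (0.616%, 0.484 to 0.773). The knockout share was 1.72 times the wildtype mean of 0.358% ± 0.0367 (SD, n = 2). Among barcodes from 3000 UMIs the 25, 31 and 57 deep members made up 0.633% (0.410 to 0.933), 0.636% (0.433 to 0.902) and 0.985% (0.747 to 1.27). The knockout share was 0.351 points above the wildtype mean of 0.634% ± 0.00241 (SD, n = 2), and its interval overlapped both wildtype intervals.

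Shares are relative to all other barcodes, so more Leydig cells and fewer other cells cannot be told apart. With at most 5% mitochondrial UMIs in place of 10% the gap among deep barcodes was 0.124 points, and with at least 50 rule-gene UMIs per 10000 it was 0.252 points. Against peritubular myoid barcodes, the contractile cells of the tubule wall, the deep members numbered 25 to 100 in wildtype replicate 1, 31 to 94 in wildtype replicate 2 and 57 to 100 in the knockout library. Sertoli barcodes from 3000 UMIs numbered 111, 69 and 249, and macrophage barcodes 16, 8 and 49, among 3951, 4873 and 5784 kept barcodes of that depth. Sertoli and macrophage barcodes were thus most numerous in the knockout library, also relative to its kept barcodes of that depth. A higher knockout share was therefore not seen in the Leydig members alone. Peritubular myoid barcodes were equal in number in wildtype replicate 1 and the knockout library.

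**Figure D1:**
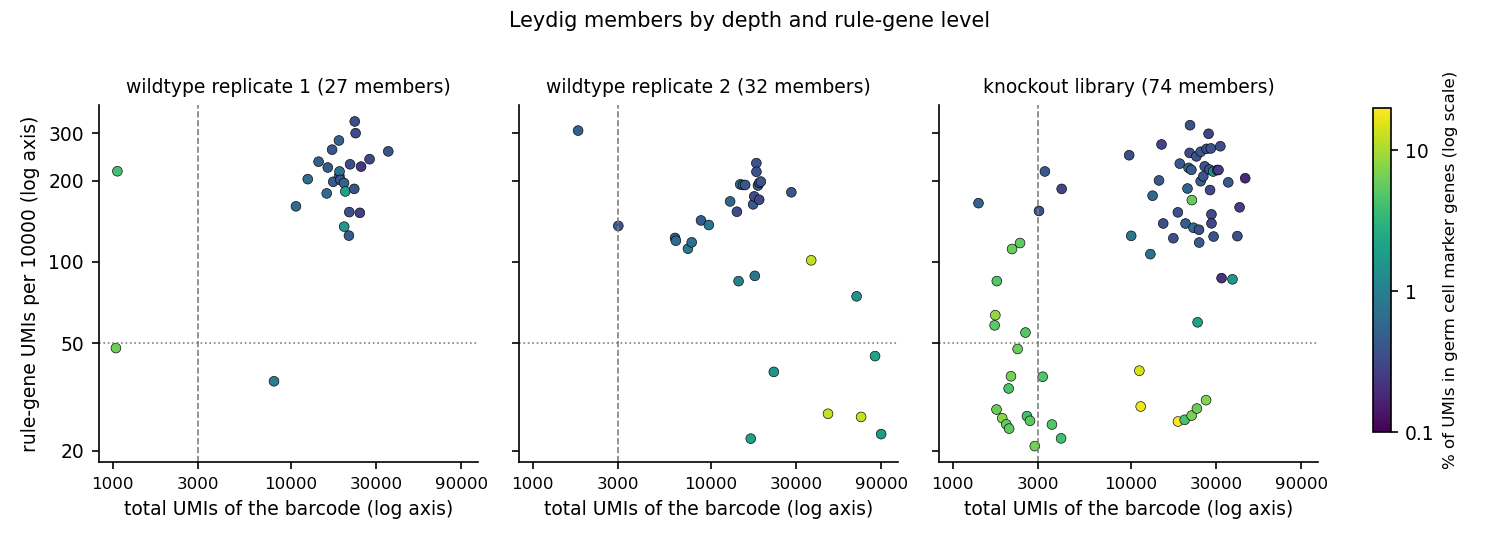
Each point is 1 of the 133 members, with its total UMIs on the horizontal log axis and its rule-gene UMIs per 10000 on the vertical log axis, in a panel for each library. Of the 17 members under 3000 UMIs of the knockout library, 10 lie below 50 per 10000 and the highest lies at 165. The wildtype libraries held 2 and 1 members of that depth.

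The range around the limit of 20 per 10000 was thinly filled in the wildtype libraries and well filled in the knockout library. Between 20 and 30 per 10000 there were 0, 4 and 14 members, and just outside, between 10 and 20, there were 0, 1 and 5 barcodes with enough rule-gene UMIs. The lowest members stood at 36.2, 22.2 and 20.8 per 10000, and the highest barcodes left out stood at 17.3 in wildtype replicate 2 and 19.7 in the knockout library. Barcodes that missed the count limit with 4 rule-gene UMIs numbered 0, 1 and 6. Raising the level to 50 per 10000 left 24, 25 and 47 deep members, called rule-rich members below.

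Germ cell transcripts moved with the lower members. Over 49 germ cell marker genes, the median deep member held 0.430%, 0.563% and 0.424% of its UMIs in these genes, and the highest members held 1.97%, 12.7% and 18.9%. More than 1% was found in 2 of 25, 8 of 31 and 14 of 57 deep members. Of the 17 deep members under 50 rule-gene UMIs per 10000, 16 held more than 1% germ cell marker UMIs. The summed level of 15 elongating spermatid markers was 4633, 27906 and 14381 CPM in the deep members, highest in wildtype replicate 2. In the rule-rich members that sum was 4565, 13844 and 5010 CPM, against 81051, 86831 and 91449 CPM in the other barcodes from 3000 UMIs. Levels are therefore given below for all deep members, for the rule-rich members and, where a call depended on it, for the 23, 23 and 43 deep members with at most 1% germ cell marker UMIs, called germ-poor members. The germ-poor set was chosen after seeing the data.

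Markers of other somatic cells were not all low in the deep members. In the other barcodes from 3000 UMIs, Sertoli markers summed to 413, 312 and 718 CPM, below the deep members in each library. Stromal markers summed to 59.8, 49.5 and 59.3 CPM there, also below, and myoid markers to 364, 334 and 351 CPM, above. Macrophage markers summed to 64.9, 42.5 and 142 CPM and endothelial markers to 14.3, 15.1 and 22.1 CPM. Their order against the deep members differed between libraries. Of 14 macrophage markers, 4, 8 and 0 were at 0, and their sums were 212, 21.2 and 620 CPM. Of 15 Sertoli markers 6, 4 and 1 were at 0 and the sums were 3479, 1890 and 3581 CPM. Most of this was Defb19, a defensin gene listed as a Sertoli marker, at 2721, 1411 and 2381 CPM. Sox9, Cldn11, Rhox8, Wt1, Cst9, Cst12, Rhox5 and Dhh were taken as the defining Sertoli genes. Of these, Sox9 had 0, 1 and 5 UMIs. Outside this set, Fshr was at 0 in each library, but it was also below 1 CPM in the other barcodes. Amhr2 stood at 176, 88.8 and 257 CPM, against 16.3, 12.6 and 36.0 CPM in the other barcodes. Defb19, Aard, Ctsl and Gata1 were likewise above the other barcodes in each library. Sox9, Fshr and Rhox8 were below them in each, and the remaining Sertoli markers were above them in the knockout library only. Among the latter, Cst12 reached 125 CPM and Cst9 88.2 CPM there. The 11 myoid markers summed to 268, 223 and 190 CPM with 7, 5 and 1 at 0, and Acta2 had 0, 2 and 1 UMIs. The 11 stromal markers summed to 282, 155 and 204 CPM with 4 at 0 in each library, and the 11 endothelial markers to 10.2, 3.98 and 96.3 CPM with 7, 9 and 2 at 0. At least 10 macrophage UMIs were found in 1, 0 and 3 deep members, and at least 5 UMIs of the defining Sertoli genes in 0, 2 and 4. Their part in the levels below was not tested beyond leaving those members out.

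Among receptors and regulators, none of the 13 measured genes of 33 listed passed the rule of size. This rule called a gene when its knockout level, with 10 CPM added, differed at least 2-fold from each wildtype library in 1 direction, and when the smaller log2 ratio was at least 2 times that between the wildtype libraries. It was applied to genes with at least 100 CPM in at least 1 library. Over all 2197 such genes in deep members 9 were called, which is 0.41%. Lhcgr, the luteinizing hormone receptor, stood at 272, 125 and 237 CPM. Prlr, the prolactin receptor, stood at 1277, 753 and 1023 CPM. Nr5a1 stood at 114, 57.0 and 114 CPM. Each of these knockout values lay within the wildtype range. The immediate early genes Fos, at 1503, 672 and 782 CPM, and Jun, at 887, 478 and 584 CPM, also lay between the wildtype values. The median log2 ratio of the 13 genes was -0.19 against wildtype replicate 1 and 0.28 against wildtype replicate 2, beside 0.05 and 0.06 over all tested genes.

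For cholesterol supply, 0 of 18 measured genes of 32 listed passed the rule of size. Their median log2 ratio was 0.06 against wildtype replicate 1 and 0.80 against wildtype replicate 2, and in rule-rich members 0.14 and 0.40, beside 0.00 and 0.00 over the 1777 genes tested in both sets of members. In rule-rich members 12 of the 18 lay above both wildtype libraries and 1 lay below both, whereas over those 1777 genes 517 lay above both and 517 below both. Scarb1, the receptor that takes up cholesterol from high-density lipoprotein, stood at 191, 140 and 266 CPM in the rule-rich members. Hmgcs1, an enzyme of the mevalonate pathway, stood at 193, 129 and 251 CPM there. Soat1, which esterifies cholesterol for storage, stood at 276, 285 and 388 CPM. These knockout levels were above both wildtype levels by less than 2-fold. Tspo, a protein of the outer mitochondrial membrane, stood at 530, 374 and 436 CPM, between the wildtype values.

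The enzymes of testosterone synthesis were abundant in every library. Cyp17a1 stood at 9252 CPM (8984 to 9525) in wildtype replicate 1, 3587 (3453 to 3725) in wildtype replicate 2 and 9048 (8881 to 9217) in the knockout library. Cyp11a1 stood at 3648, 2047 and 3849 CPM, and Star at 1898, 975 and 1514 CPM. Wildtype replicate 2, the library with the most germ cell transcripts among its members, was lowest for all 3 of these genes. In the rule-rich members Cyp17a1 stood at 9406, 5414 and 10071 CPM, with log2 ratios of 0.10 and 0.89. Chosen by the other 5 genes only, the members gave 9252, 4719 and 9900 CPM of Cyp17a1 and 3648, 2631 and 3868 CPM of Cyp11a1. The knockout level of Cyp17a1 was then above that of wildtype replicate 1, whereas it was below it in the members chosen by all 6 genes.

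Hsd17b3, which the rule did not use, stood at 613, 409 and 563 CPM in deep members and at 621, 642 and 633 CPM in rule-rich members, where the 3 libraries differed little. The electron donors of the mitochondrial step, Fdx1 and Fdxr, stood at 2159, 1072 and 1971 CPM and at 490, 306 and 397 CPM. Sult1e1, which sulfates oestrogens, stood at 658, 264 and 1013 CPM in deep members and at 669, 371 and 1141 CPM in rule-rich members. The Sult1e1 knockout level was the highest of the 3, with log2 ratios of 0.76 and 1.59 in rule-rich members, and it did not pass the rule. Of the 19 listed partners of steroid synthesis 10 were measured and 0 passed. Hsd11b1, an enzyme that activates glucocorticoids, and the adrenal gene Cyp11b1 were at 0 in the deep members of each library.

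Insl3 was the rule gene with the lowest knockout level relative to the wildtype libraries. It stood at 3260 CPM (3102 to 3424) in wildtype replicate 1, 1348 (1266 to 1433) in wildtype replicate 2 and 803 (754 to 855) in the knockout library. Its log2 ratios were -2.01 and -0.74, so the knockout level was below both, while the wildtype libraries differed from each other by more than 2-fold. In rule-rich members the values were 3288, 1988 and 902 CPM, with log2 ratios of -1.85 and -1.13. In germ-poor members they were 3319 (3152 to 3491), 2326 (2163 to 2497) and 956 (896 to 1019) CPM, with log2 ratios of -1.78 and -1.27 against 0.51 between the wildtype libraries. Insl3 met the limits of the rule of size in germ-poor members, which is 1 of 11 settings of the members, the scaling and the rule. Because Insl3 helped to choose the members, nothing is read from that call.

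The same order was seen cell by cell. Insl3 UMIs per 10000 in the deep members ranged from 3.71 to 54.0 with a median of 31.3 in wildtype replicate 1, and from 3.6 to 35.5 with a median of 18.3 in wildtype replicate 2. In the knockout library they ranged from 0 to 17.5 with a median of 7.24. The highest knockout member was exceeded by 21 of the 25 members of wildtype replicate 1 and by 16 of the 31 of wildtype replicate 2. In the rule-rich members the medians were 32.2, 19.6 and 8.22. The cells of a library share its preparation, so these counts of cells describe 3 libraries and no test over cells was made.

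**Figure D2:**
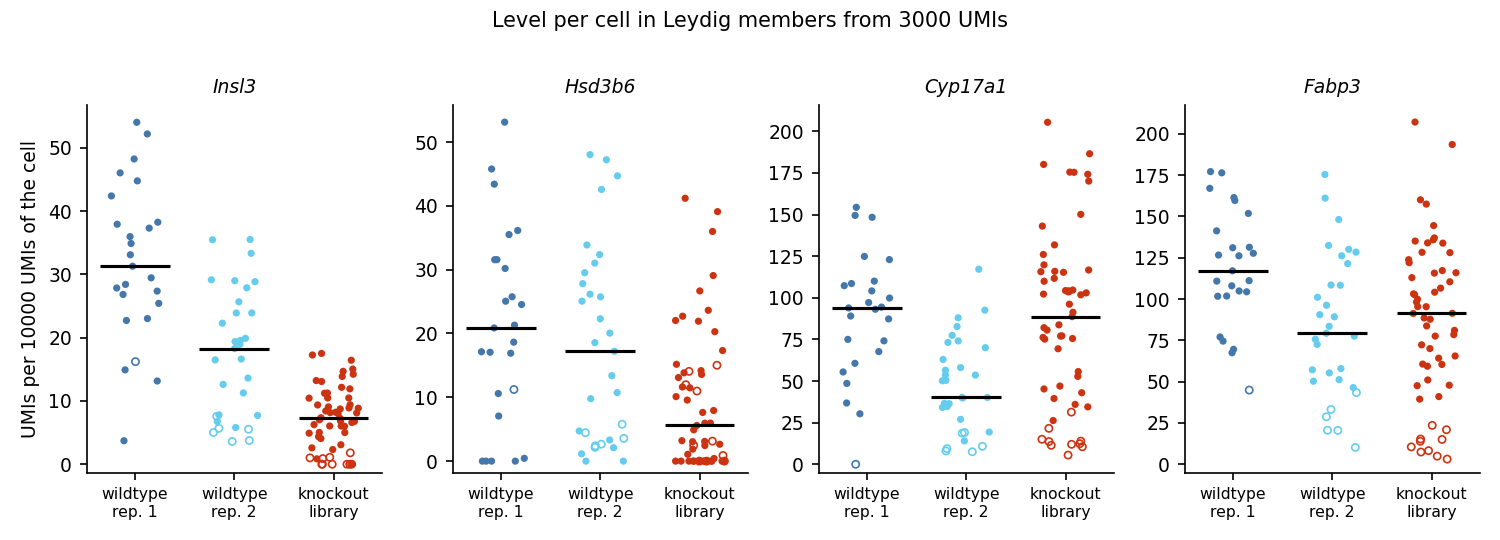
Each point is 1 deep member, with UMIs of the gene per 10000 UMIs of the cell on the vertical axis and the 3 libraries on the horizontal axis, in a panel for each gene. The Insl3 points of the knockout library end at 17.5, while the wildtype points reach 54.0 and 35.5.

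Shares within the rule-gene UMIs do not depend on how many other transcripts a barcode held. Insl3 made up 15.4% (14.7 to 16.1) of the 10358 rule-gene UMIs of wildtype replicate 1, 13.8% (13.0 to 14.6) of 7382 in wildtype replicate 2 and 4.75% (4.47 to 5.05) of 20868 in the knockout library. The wildtype mean was 14.6% ± 1.15 (SD, n = 2), and the knockout value lay outside both wildtype intervals. Hsd3b6 made up 10.1%, 14.4% and 5.87%, against a wildtype mean of 12.2% ± 3.05 (SD, n = 2). Cyp17a1 took the larger part of the knockout UMIs, with 43.7%, 36.7% and 53.6%. Cyp11a1 made up 17.2%, 20.9% and 22.8%, Star 8.97%, 9.97% and 8.96%, and Hsd3b1 4.61%, 4.29% and 4.06%. In germ-poor members the Insl3 share was 15.3%, 13.8% and 4.94% and the Hsd3b6 share 10.4%, 14.4% and 5.48%. Since the shares add up to 100% and the rule summed these genes, they show only how the 6 genes divided the sum.

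**Figure D3:**
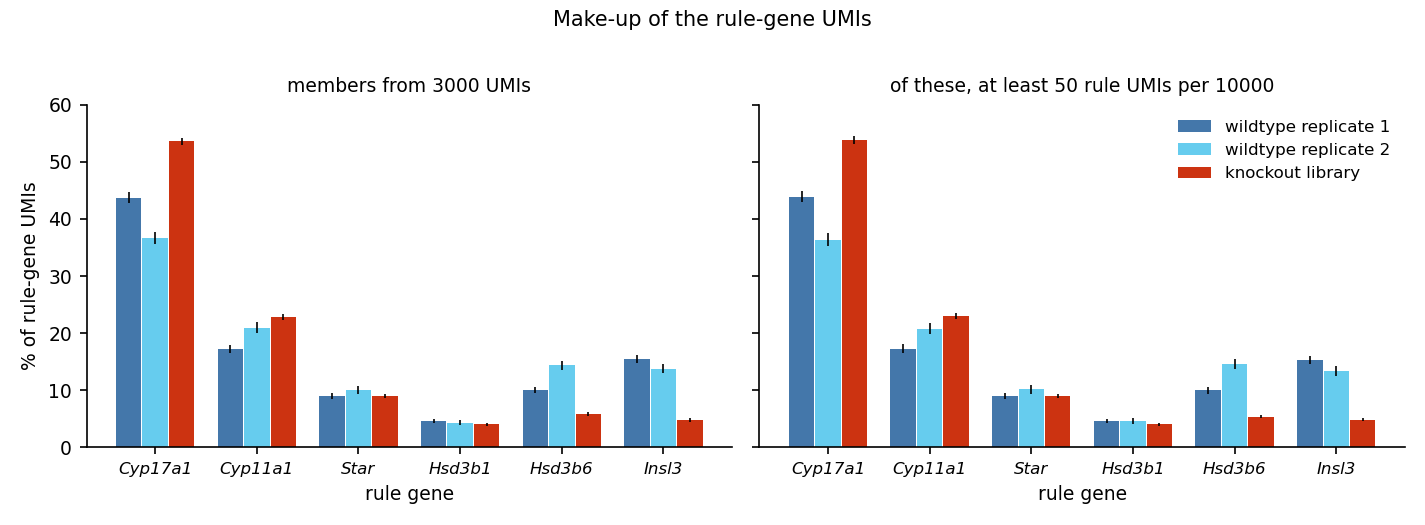
The bars give the percentage of rule-gene UMIs that each of the 6 rule genes held in each library, with exact binomial intervals, for all deep members and for rule-rich members in separate panels. The Insl3 bar of the knockout library stands at 4.75% in deep members, against 15.4% and 13.8% in the wildtype libraries.

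Insl3 lies at chr8:71689214-71690575 on the plus strand of GRCm38, where it overlaps Jak3, which runs in the same direction. Of the words of 31 bases in its last 500 bases, 79.6% are shared with Jak3 transcripts, so reads could have been divided between the genes or left out, and the Insl3 level is uncertain for this reason. Jak3, a kinase of blood cells, had 23, 24 and 87 UMIs in the deep members, or 47.0, 31.8 and 70.4 CPM. Its knockout level was the highest of the 3 but far below that of Insl3. Insl3 was found in 0.357%, 0.351% and 0.524% of the other barcodes from 3000 UMIs, so the background of this gene was low in each library. For Cyp17a1 these values were 1.12%, 0.743% and 3.89%.

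Hsd3b6 was the other rule gene below both wildtype libraries. It stood at 2126 (1999 to 2260), 1405 (1321 to 1492) and 992 (937 to 1049) CPM in the deep members. In rule-rich members it stood at 2143, 2179 and 1010 CPM, with log2 ratios of -1.08 and -1.10, and in germ-poor members at 2240, 2439 and 1062 CPM. It met the limits of the rule of size in these sets, which are 2 of the 11 settings, and not in all deep members. As for Insl3, nothing is read from the call of a gene that chose the members. Per cell the medians in deep members were 20.9, 17.2 and 5.58 per 10000, and 0 UMIs were found in 4 of 25, 2 of 31 and 16 of 57 members. Hsd3b1 stood at 974, 420 and 686 CPM in deep members, between the wildtype values, and at 994, 892 and 778 CPM in germ-poor members, below both. Of the words in the last 500 bases of Hsd3b6, 35.5% are shared with Hsd3b2, Hsd3b3 or Hsd3b1, and 2.75% of those of Hsd3b1, so the division of reads between these copies is uncertain. The genes lie near each other on the minus strand of GRCm38, Hsd3b6 at chr3:98805504-98814443 and Hsd3b1 at chr3:98852194-98859794.

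The Hsd3b isoforms were unevenly spread over the cells of each library. Among the rule-rich members 5 of 24, 3 of 25 and 15 of 47 held at most 1 UMI of Hsd3b6, a split chosen after seeing the data, which is 20.8% (7.13 to 42.2), 12% (2.55 to 31.2) and 31.9% (19.1 to 47.1). The intervals of the 3 libraries overlapped. These Hsd3b6-low members held more Hsd3b1, at 2357, 5661 and 1168 CPM against 628, 366 and 585 CPM in the remaining rule-rich members. The log2 ratios of Hsd3b1 were 1.89, 3.92 and 0.98. In the remaining members Hsd3b6 stood at 2709, 2319 and 1420 CPM, so the lower knockout level was also present outside the Hsd3b6-low members. Over the cells of a library, Pearson's r of both isoforms was -0.32 in the 24 members of wildtype replicate 1, -0.47 in the 25 of wildtype replicate 2 and -0.32 in the 47 of the knockout library. These points share a library and a depth. Both isoforms are part of the sum that chose the members, so a cell with little Hsd3b6 had to hold more of the other rule genes, and the difference in Hsd3b1 and the negative r are in part built in by the choice of cells.

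**Figure D4:**
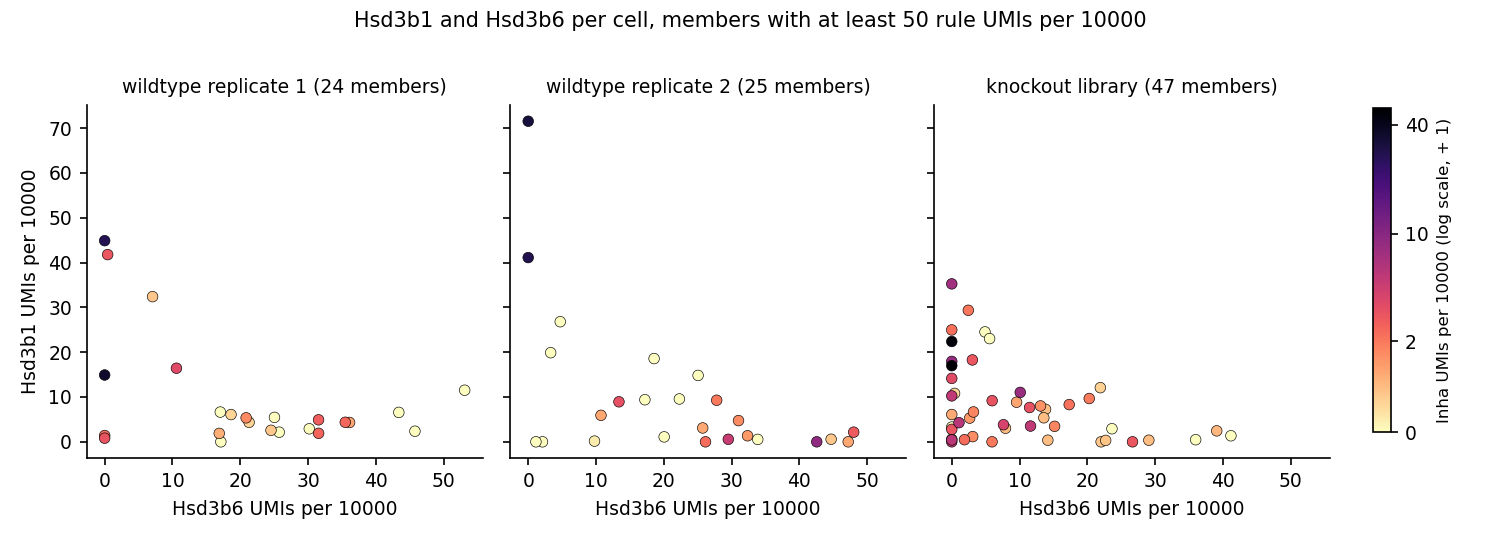
Each point is 1 rule-rich member, with Hsd3b6 UMIs per 10000 on the horizontal axis and Hsd3b1 UMIs per 10000 on the vertical axis, in a panel for each library. Members with high Hsd3b1 lie mostly at low Hsd3b6 in wildtype replicate 2, and the split at 1 Hsd3b6 UMI sets apart 5, 3 and 15 members.

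In all 3 libraries the same 3 of 1399 genes (0.214%) were at least 2-fold higher in Hsd3b6-low members. Inha, the alpha subunit of inhibin, stood at 1505 against 78.8 CPM in wildtype replicate 1, 2698 against 127 in wildtype replicate 2 and 805 against 190 in the knockout library. Agt, the precursor of angiotensin, stood at 5616 against 2118 CPM, 9119 against 1090 and 5065 against 2444. Pgbd5, a transposase-derived gene, stood at 475 against 92.0 CPM, 190 against 57.2 and 316 against 128. Ecm1, AU021092, Igfbp2, Selenom and Igfbp7 were at least 2-fold lower in all 3 libraries (5 genes, 0.357%). The Hsd3b6-low members had more mitochondrial UMIs, with medians of 9.22%, 9.18% and 6.20% against 5.60%, 6.06% and 5.53%, and the part of this in the differences was not tested. With 5 and 3 such cells in the wildtype libraries, single cells weigh heavily in these values.

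Among Leydig markers outside the rule, 0 of 16 measured genes of 22 listed passed the rule of size in deep members. Their median log2 ratio was -0.18 and 0.58, and -0.04 and 0.21 in rule-rich members. Vcam1, an adhesion molecule, stood at 3593, 1667 and 1278 CPM, and at 3624, 2628 and 1438 CPM in rule-rich members. It was lowest in the knockout library in both sets but by less than 2-fold against wildtype replicate 2, with -1.33 and -0.86 in rule-rich members. Ptgds, a prostaglandin D synthase, stood at 11286, 5551 and 14238 CPM in deep members and was highest in the knockout library. Aldh1a1, which makes retinoic acid, stood at 7280, 4049 and 4230 CPM. Cyp2a4, Cyp2a5, Igfbp3 and Hsd11b1 were at 0 in the deep members of each library.

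The 25 genes that led in the members over other barcodes were secreted proteins, metabolic enzymes and membrane proteins, among others. They were ranked by the smallest log2 ratio over the 3 libraries of deep members over other barcodes from 3000 UMIs, with the rule genes left out, so that being high in each library was part of the choice, and 11 of them were in the listed Leydig markers, regulators or detoxification genes. This ranking describes the chosen cells and tests nothing. Lcn2, a secreted lipocalin, led with 8712, 5764 and 11631 CPM against 1.20, 1.79 and 6.48 CPM elsewhere. Gstm1 and Gstm2, glutathione transferases, stood at 11609, 7615 and 8618 CPM and at 5121, 3019 and 4542 CPM. Bhmt, which makes methionine from betaine, stood at 3648, 1407 and 2339 CPM. Apoc1, an apolipoprotein, stood at 1536, 1052 and 2003 CPM. None of the 25 passed the rule of size between knockout and wildtype. Of 26 listed antioxidant and detoxification genes 20 were measured and 0 passed, with median log2 ratios of -0.25 and 0.29.

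Genes of fetal Leydig cells and of progenitors were low or at 0. Of 16 listed, only Nr2f2, a nuclear receptor of stromal and progenitor cells, reached 100 CPM, at 139, 55.7 and 65.6 CPM, and it did not pass. Thbs2, Mc2r and Dlk1, which mark fetal Leydig or progenitor cells, were at 0 in the deep members of each library. Of 9 listed genes of the Tex10 complex none reached 100 CPM in the deep members.

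The 9 genes that passed the rule in deep members were 5 higher (0.228%) and 4 lower (0.182%) in the knockout library. Rarres1, a gene induced by retinoic acid, stood at 34.7 CPM (20.2 to 55.6) in wildtype replicate 1, 17.2 (9.17 to 29.5) in wildtype replicate 2 and 275 (247 to 306) in the knockout library. It was 10.6 times the wildtype mean, and it was found in 8 of 25, 9 of 31 and 46 of 57 members, so most knockout members carried it. In other barcodes from 3000 UMIs it stood at 0.883, 0.688 and 1.36 CPM. Sh3bgrl3, a small thioredoxin-like protein, stood at 40.9, 37.1 and 164 CPM in the members and was found in 14, 14 and 49 of them. In the other barcodes it stood at 17.0, 17.2 and 53.8 CPM, with knockout ratios of 1.24 and 1.23 on the log2 scale, so a higher level was not seen in the members alone.

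Abhd2, a serine hydrolase, was lower in the knockout members. It stood at 362 CPM (310 to 419), 229 (196 to 266) and 78.5 (63.7 to 95.8) and was found in 23 of 25, 30 of 31 and 41 of 57 members. In other barcodes from 3000 UMIs Abhd2 stood at 32.3, 36.7 and 38.2 CPM, and the knockout value there was above both wildtype values. Its ratios in the members were -2.07 and -1.43 on the log2 scale. Gm43305, a predicted gene, stood at 321, 189 and 23.5 CPM in the members and below 2 CPM elsewhere, and 66.9% of its end words are shared with other genes, so its level is uncertain.

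Rpl29, a protein of the large ribosomal subunit, stood at 931, 1034 and 107 CPM in the members and at 865, 864 and 89.8 CPM in the other barcodes from 3000 UMIs. Gm8797, a predicted gene whose end shares 93.0% of its words with Ubb and similar genes, stood at 108, 158 and 8.90 CPM in the members and at 152, 191 and 20.5 CPM in the others. These 2 of the 9 genes were called in the other barcodes too, where 8 of 2047 genes (0.391%) passed, 4 higher (0.195%) and 4 lower (0.195%), and they were thus not particular to Leydig cells. Rpl29 shares 57.7% of its end words with pseudogenes and is uncertain. Of 77 measured ribosomal protein genes of 92 listed, Rpl29 was the only one past the rule, as lower.

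The calls of Cd74 and Cst12 rested on few cells. Cd74, the invariant chain of antigen-presenting molecules and a macrophage marker, stood at 6.13, 0 and 121 CPM, and 92.6% of its knockout UMIs came from 1 cell. Without that cell its knockout level was 9.11 CPM. Cst12, a cystatin listed as a Sertoli marker, stood at 4.09, 18.6 and 125 CPM with 42.9% of its knockout UMIs in 1 cell. Neither passed once members with macrophage or defining Sertoli UMIs were left out. Both genes count toward those UMIs, so this result is in part built in. Gm37350, a predicted gene, stood at 174, 148 and 378 CPM and shares 57.5% of its end words with other genes.

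**Figure D5:**
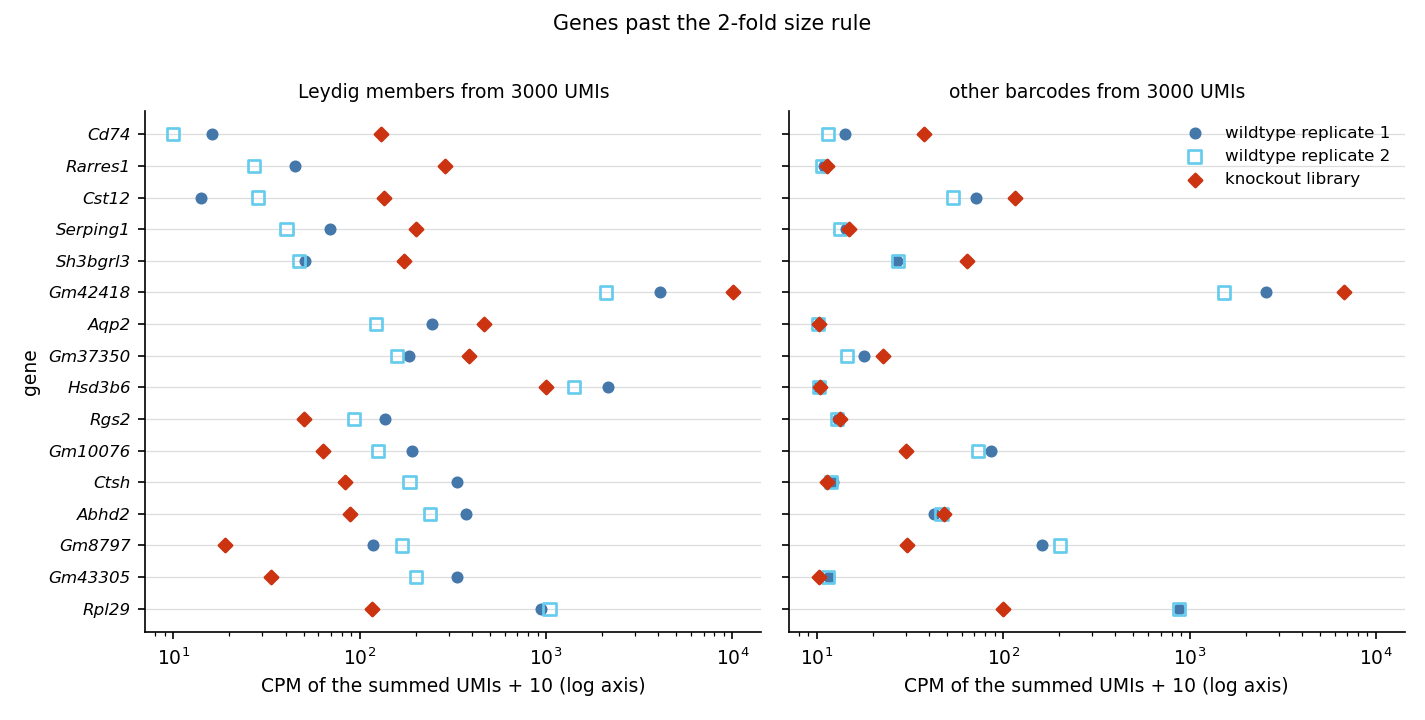
For each gene that passed the rule in deep members or in rule-rich members, the points give its CPM plus 10 on a log axis. The 3 libraries are shown, with deep members and the other barcodes of the same depth range in separate panels. In the panel of deep members, Rarres1 and Sh3bgrl3 lie to the right in the knockout library (275 and 164 CPM), and Abhd2 lies to the left (78.5 CPM).

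In rule-rich members 15 of 1841 genes passed (0.815%), 7 higher (0.38%) and 8 lower (0.435%), the rule gene Hsd3b6 among them. In germ-poor members 15 of 1728 passed (0.868%), 6 higher (0.347%) and 9 lower (0.521%), with the rule genes Hsd3b6 and Insl3 among them. Serping1, an inhibitor of complement proteases, stood at 56.1, 44.4 and 215 CPM in the rule-rich members. Aqp2, a water channel, stood at 237, 180 and 509 CPM in the rule-rich members. Ctsh, a lysosomal cathepsin, stood at 314, 276 and 82.4 CPM in them, and Rgs2, a regulator of G protein signalling, at 129, 107 and 45.8 CPM. Serping1 and Aqp2 were above both wildtype libraries and Ctsh and Rgs2 below both, also in all deep members, where they did not pass. Gm42418, as higher, and Gm10076, as lower, also passed, and their levels are uncertain. Gm10076 shares 84.2% of its end words with Rpl41 and its copies. Gm42418 overlaps genes on the other strand while the use of strand is not stated. In the other barcodes of the same depth range Gm42418 stood at 2549, 1523 and 6700 CPM. Gm10076 stood at 76.0, 63.4 and 20.2 CPM there. Neither was called in those barcodes, but both differed in the same direction, so these differences were not seen in the members alone. Rarres1, Sh3bgrl3, Abhd2, Gm43305, Gm8797 and Rpl29 were called in all 11 settings.

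The members under 3000 UMIs of the knockout library mostly carried germ cell transcripts too. There were 2, 1 and 17 members under 3000 UMIs, or 0.0478% (0.00579 to 0.173), 0.0289% (0.000731 to 0.161) and 0.273% (0.159 to 0.437) of the kept barcodes under 3000 UMIs. Both members of wildtype replicate 1, at 1042 and 1062 UMIs, lay below 1381 UMIs, the lowest total deposited for the knockout library. Germ cell marker genes held at least 4% of the UMIs in 2 of 2, 0 of 1 and 16 of 17. The 17 knockout members carried between 5 and 28 rule-gene UMIs, with a median of 8, and at least 4 of the 6 rule genes were found in 4 of them. Fabp3 was found in 15 of the 17, against 4.17% of the other knockout barcodes under 3000 UMIs, at median depths of 2070 and 1968 UMIs. The Leydig label is therefore less firm for these barcodes, which carried Leydig transcripts together with germ cell transcripts.

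Cyp17a1 led in the shallow members, with 15 of 28 rule-gene UMIs in wildtype replicate 1, 30 of 55 in wildtype replicate 2 and 123 of 191 (64.4%) in the knockout library. Insl3 was found in 2 of 2, 1 of 1 and 4 of 17 of them. Hsd3b6 was found in 0, 0 and 2. Background differed here, since Cyp17a1 was found in 0.359%, 0.520% and 2.32% of the other barcodes under 3000 UMIs, and in 1.12%, 0.743% and 3.89% of those from 3000 UMIs. The other barcodes under 3000 UMIs had median depths of 1434, 1463 and 1968 UMIs, deepest in the knockout library. Cyp17a1 was found most often in the knockout library for both depths. The part of such free or carried-over RNA in the 17 shallow knockout members was not tested. With 2104 and 1796 UMIs in the wildtype members in all, the rule of size called 1240 of 3035 genes (40.9%), 1125 higher (37.1%) and 115 lower (3.79%), and cannot be read.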

How the data were processed

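The deposited values are raw UMI counts per gene and barcode, which the authors made from 10x Genomics 3′ libraries. Cell Ranger 4.0.0, Seurat 4.0.5 and the build mm10 are named in the submitters' processing notes, and the use of strand in counting is not given in the sources used here. Counts were read as deposited, the barcode filter was applied and the members were found by the rule. UMIs were summed over members per library and expressed per 1000000 UMIs (CPM), with exact Poisson intervals, and shares have exact Clopper-Pearson intervals. The depth behind the deep members was 489540 UMIs for wildtype replicate 1, 754679 for wildtype replicate 2 and 1235392 for the knockout, which sets the precision of each CPM. The rule of size used 10 CPM added to each level and 100 CPM in at least 1 library. Its limits were 2-fold and 2 times the wildtype log2 ratio. It was also run on simulated counts from a shared profile, with some genes changed by known folds and counting error only. That run does not cover differences between the wildtype libraries. With 1 knockout library no statistical test was made.

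The genes named are those of the fixed lists, the 25 genes that lead in the members, up to 10 higher and 10 lower genes past the rule of size, and Tex10. Genes of the rule-rich and Hsd3b6-low comparisons, Jak3 and single marker genes were named after their values were seen. The members and lists were chosen with earlier results of these data known. Gene positions come from GENCODE M21 on GRCm38, which matched 32235 of 32285 genes. Shared transcript ends were counted over words of 31 bases in the last 500 bases. Doublets were not removed, since the automatic threshold of Scrublet marked 0, 1 and 0 barcodes. Alternatives changed the filters, the member rule, the depth split, the scaling and the rule of size, and left out each wildtype library. Versions were Python 3.11.15, numpy 2.4.6, scipy 1.17.1, pandas 2.3.3, scanpy 1.11.5 and matplotlib 3.10.9.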

Additional observations from a re-analysis of the deposited data

Results flagged for a closer look

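Barcodes left out by the cell filter also met the Leydig rule. There were 3 in wildtype replicate 1, 4 in wildtype replicate 2 and 11 in the knockout library, and each of them had more than 10% mitochondrial UMIs. Their median depth was 18565, 7274 and 4120 UMIs. The rule genes chose these few barcodes too, so their parts are a description and support no finding. Insl3 made up 10.7%, 10.2% and 3.42% of the rule-gene UMIs of these barcodes, lowest in the knockout library. Hsd3b6 made up 1.84%, 10.9% and 10.8%, and for this gene the knockout library was not below both wildtype libraries.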

How the results depend on the processing

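Shares that include barcodes under 3000 UMIs compare unlike depth ranges, as given above. The gap in the share of members, knockout minus wildtype mean, stayed above 0 in each alternative run. For all barcodes, barcodes from 3000 and barcodes under 3000 UMIs it was 0.179, 0.124 and 0.252 points with at most 5% mitochondrial UMIs, 0.173, 0.316 and 0.102 with at least 10 rule-gene UMIs, and 0.140, 0.252 and 0.0860 with at least 50 per 10000. Without the top 8% of Scrublet scores the gap was 0.451, 0.735 and 0.263 points. That cut removed all 25 deep members of wildtype replicate 1, leaving 0 among 3606 barcodes. This loss lowered the wildtype mean for all barcodes and for those from 3000 UMIs, so the gaps there cannot be read. No gene comparison could be made with this cut. With up to 20% mitochondrial UMIs the deep and shallow gaps were 0.359 and 0.273 points, with the split at 3 times the lowest total 0.441 and 0.281, and with the split at 5000 UMIs 0.388 and 0.262. With at least 10 per 10000 the deep gap was 0.427 points. Leaving out each wildtype library gave 0.232 to 0.284, 0.349 to 0.353 and 0.225 to 0.244 points. The count of 9 genes past the rule of size became 15 in rule-rich members, 15 with median-ratio size factors (log2 shifts of 0.15, -0.20 and 0.03 for the 3 libraries), 15 in germ-poor members, 16 without members holding macrophage or Sertoli UMIs, 16 at 1.5-fold, 50 of 7611 at 20 CPM, 74 of 18208 with no minimum and 1 of 429 at 500 CPM. The sets of germ-poor members and of members without macrophage or Sertoli UMIs were chosen after seeing the data. Without wildtype replicate 2 and without wildtype replicate 1 the count was 138 and 556, by construction of a rule that then needs only 1 wildtype library. Members chosen by the other 5 genes moved Cyp17a1 to 4719 CPM in wildtype replicate 2 and 9900 in the knockout library, and in wildtype replicate 2 Cyp11a1 to 2631, Hsd3b6 to 1567 and Insl3 to 1490. Of 564 values of 47 named genes under 12 alternatives, 0 changed direction as a called gene, 13 lost and 48 gained a call. The cause of these changes was not tested. Depth limits genes under 100 CPM in wildtype replicate 1, where 1 UMI is about 2.04 CPM. No paired analysis was possible because the knockout group has 1 library and shares fewer than 2 replicate numbers with the wildtype group.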
